A study of Sus scrofa with 20 samples.

Results

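Hydroxyproline and glyoxylate degradation was followed in the ileum mucosa of 20 pigs through the genes of its enzymes. The genes were those named PRODH2, PRODH, ALDH4A1, GOT1, GOT2, HOGA1, GRHPR, AGXT, AGXT2 and L3HYPDH, and each probeset with values and one of these names was taken, 6 of the 25092 filled probesets of the series. The pigs, from a Large White by Landrace cross, differed in residual feed intake (RFI), which is feed intake set against the intake predicted, here from body weight, back fat and muscle depth. GEO's labels give the feed efficiency of each pig, and a pig labelled as highly feed efficient was taken as low RFI, which is how the methods of the study define that group. Every direction between the RFI groups given here rests on this reading of the labels and would turn if they meant RFI itself. There were 10 low and 10 high RFI pigs with 1 snowball array each, and they came from 5 sows. In each litter a female and a male of low RFI stood beside a sister and a brother of high RFI, which gave 10 litter-by-sex pairs. No pig had been treated, the pairs were chosen as the most divergent litter mates, and the sow also stands for the pen. The values are robust multichip averages on the log2 scale, so a difference of 1 is a doubling, and each is a level of 1 probeset that is not set against the level of another.

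Hydroxyproline enters the diet and the body's own turnover mainly through collagen, whose prolines are hydroxylated after translation. In mammals it is broken down in mitochondria: PRODH2 oxidises it, ALDH4A1 oxidises the product to hydroxyglutamate, an aspartate aminotransferase (GOT1 in the cytosol, GOT2 in mitochondria) removes the amino group, and HOGA1 splits the remaining oxo acid into pyruvate and glyoxylate. Glyoxylate is then aminated to glycine by AGXT or reduced to glycolate by GRHPR, and what escapes both can be oxidised to oxalate by lactate dehydrogenase. In humans, loss of AGXT, GRHPR or HOGA1 causes primary hyperoxaluria, and these enzymes are best known from liver and kidney.

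Of the 10 genes, 8 had a probeset on the array and 6 had values. The filled probesets stood for PRODH2, ALDH4A1 (1 of its 3 probesets), HOGA1 (listed under its older symbol DHDPSL), AGXT, GRHPR and GOT1. GOT2 and AGXT2 had a probeset whose row was empty, and no probeset was named for PRODH, the proline counterpart of PRODH2, or for L3HYPDH, which acts on another hydroxyproline isomer. Each measured enzyme therefore rests on 1 probeset, with no second one to set beside it. The filter of the methods on mean and SD left 22136 probesets and kept 5 of the 6. PRODH2 was left out because its SD in low RFI pigs, 0.851, lay over the limit of 0.825, and its results come from the same fit on all 25092 filled probesets. Its SD in high RFI pigs, 0.761, lay under the limit of 0.808. Where only probesets over both SD limits were left out, PRODH2 was kept and did not pass for RFI (-0.50, p = 0.0881 by limma).

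In Sscrofa11.1, PRODH2 (45213712 to 45240437) and ALDH4A1 (77373999 to 77404015) lie on chromosome 6. HOGA1 (108958812 to 108986373) and GOT1 (110608422 to 110635825) lie 1.62 Mb apart on chromosome 14. AGXT lies on chromosome 15 (139720648 to 139730737) and GRHPR on chromosome 1 (238139764 to 238151631). The arrays were alike, with medians between 4.98 and 5.07 and correlations between arrays from 0.948 to 0.974. The enterocyte gene FABP6, which encodes the ileal bile acid binding protein, lay between 12.97 and 13.42 on the 20 arrays. Of 6 hepatocyte markers with values, 3 passed the filter, with mean log2 values of 2.46 (ALB), 3.01 (TF) and 5.20 (TTR).

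Between the RFI groups, the probesets of ALDH4A1 and HOGA1 were lower in low RFI pigs before adjustment, and those of the other members did not pass in limma. The members that did not pass include PRODH2, at the first step, and GOT1, the cytosolic enzyme of the step between ALDH4A1 and HOGA1. The mitochondrial enzyme of that step, GOT2, had no values. ALDH4A1 was 1.26-fold lower and HOGA1 1.24-fold lower, and both were lower in 9 of 10 pairs. Both are weak signals, with means over all pigs of 4.19 and 4.53, under the lowest array median of 4.98. PRODH2 (3.94) and AGXT (4.97) also lay under it, whereas GRHPR (7.25) and GOT1 (9.45) lay above every array median. AGXT and GRHPR had smaller negative differences, GOT1 had a positive one, and PRODH2 had the largest difference in size and the widest spread. In the limma fit on RFI group and sow, 2 of the 5 filtered probesets were lower at an unadjusted p under 0.05, the threshold of the methods, none was higher and 3 did not pass. Over all probesets tested, 4.03% passed this threshold, 2.59% as lower and 1.44% as higher. After Benjamini-Hochberg adjustment over all 22136 probesets, limma called 0 members, against 2 at unadjusted p, and the adjusted p of each member was 0.9998. The median difference was -0.12 over the 5 members and -0.01 over all probesets. The study drew attention to this pathway from the genes that differed in these samples. The share of members that passed is therefore not independent evidence, nor are the lower values of ALDH4A1 and HOGA1 for its direction. Less RNA per cell and fewer cells of a type cannot be told apart in a scraping of mucosa.

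**Figure D1:**
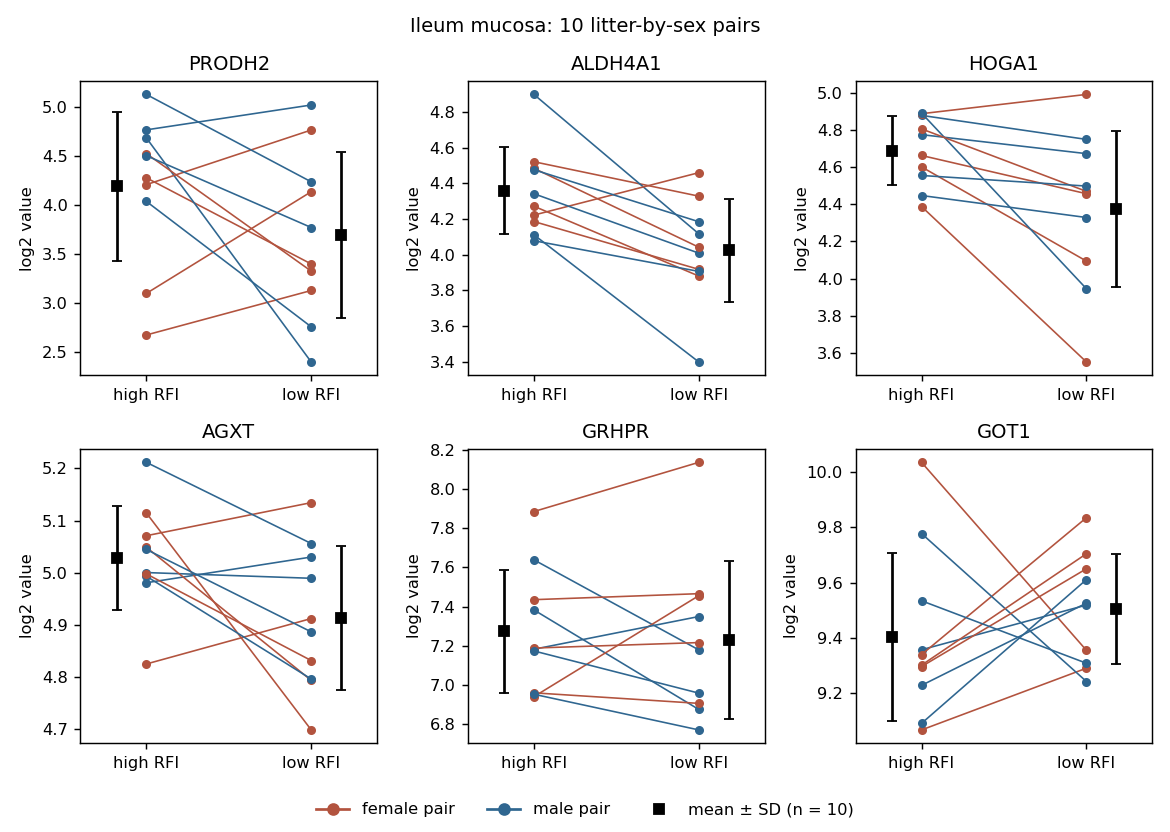
Log2 value of each enzyme gene (y axis, 1 panel a gene) in the high and low RFI pig of each litter-by-sex pair, joined by a line, red for females and blue for males; black squares and bars are the mean and SD of 10 pigs. For ALDH4A1 and HOGA1, 9 of 10 lines fall towards low RFI, whereas PRODH2 lines cross, with 6 falling and 4 rising.

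PRODH2, the dehydrogenase of the first step, ranged from 2.40 to 5.02 with a median of 3.59 in low RFI pigs. In high RFI pigs it ranged from 2.67 to 5.13 with a median of 4.39. The groups overlapped over nearly the whole range, with 1 low RFI pig under and 1 high RFI pig over all pigs of the other group. The means of 3.70 ± 0.85 and 4.19 ± 0.76 (SD, n = 10 each) for low and high RFI differed by -0.50 (standard error 0.28, 95% interval -1.09 to 0.09, p = 0.0931 by limma without the filter, where 3.99% of all probesets passed). The value was lower in 6 of 10 pairs, and the pair differences ran from -2.29 in the males of sow 1410 to 1.04 in the females of sow 1417 (exact test by sign flips within pairs, two-sided, p = 0.160). Over the fits that left out a litter or a pig the difference ran from -0.63 to -0.32. It was smallest in size without the high RFI male of sow 1410 (-0.32, p = 0.208, limma) and had its largest p without the litter of sow 1435 (-0.38, p = 0.276). The p fell under 0.05 when one of 3 pigs was left out, to 0.0344 without the low RFI male of sow 1406 (difference -0.63), 0.0425 without the high RFI female of sow 1410 (-0.61) and 0.0362 without the low RFI female of sow 1417 (-0.62), and to 0.0427 with a smooth muscle marker score as covariate (-0.60).

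ALDH4A1, which takes the second step of hydroxyproline breakdown and also completes proline breakdown, was the member with the smallest p. In low RFI pigs its lowest, median and highest values were 3.40, 4.03 and 4.46. In high RFI pigs they were 4.08, 4.31 and 4.90. The groups overlapped in part: 6 low RFI pigs lay below every high RFI pig, and 4 high RFI pigs lay above every low RFI pig. The difference was -0.34 (standard error 0.09, 95% interval -0.53 to -0.14, p = 0.00178), from means of 4.02 ± 0.29 and 4.36 ± 0.25 (SD, n = 10 each). By sign flips within pairs the exact two-sided p was 0.00781, where 0.00195 is the smallest that 10 pairs allow. The one pair that went the other way was that of the females of sow 1410, at 4.46 in the low and 4.22 in the high RFI pig. The largest pair differences, -0.78 and -0.71, were those of the males of sows 1406 and 1417. Within litters the mean difference was negative in 5 of 5, at -0.49 for sows 1406 and 1417 and at -0.05 for sow 1410. The call was kept in each of the 16 alternative settings and the 25 fits that left out a litter or a pig, with a difference between -0.41 and -0.29 and a p of at most 0.0108.

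HOGA1, the aldolase that releases glyoxylate, had lowest, median and highest values of 3.55, 4.46 and 4.99 in low RFI pigs. In high RFI pigs they were 4.39, 4.72 and 4.89. Here 4 low RFI pigs lay below every high RFI pig, and 1 low RFI pig lay above them all. The SD was 0.42 in low and 0.19 in high RFI pigs (n = 10 each), around means of 4.38 and 4.69. The difference was -0.31 (standard error 0.11, 95% interval -0.55 to -0.08, p = 0.0112 by limma), with an exact two-sided p of 0.00781 by sign flips. The litter of sow 1417 differed by -0.89, and the other litters by -0.31 to 0.00. In the litter of sow 1417 the low RFI female had 3.55 against 4.39 in her sister, and the low RFI male 3.95 against 4.89 in his brother. The other 8 pair differences lay between -0.51 and 0.10. Without the litter of sow 1417 the difference was -0.17 and the call was lost (p = 0.0854, limma), whereas it was kept with each other litter or any single pig left out. With the sow term dropped the p was 0.0353, and 0.0130 with the pair as block.

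AGXT, the aminotransferase that turns glyoxylate into glycine, varied least, over a range of 0.51 across the 20 pigs. Its values ran from 4.70 to 5.13 with a median of 4.90 in low RFI pigs, and from 4.83 to 5.21 with a median of 5.02 in high RFI pigs. All but 4 pigs thus lay where the groups overlapped. The difference was -0.12 (standard error 0.07, 95% interval -0.27 to 0.04, p = 0.126 by limma), negative in 7 of 10 pairs. The sign flip test gave an exact two-sided p of 0.0430, so the tests fell on different sides of the threshold. Across all genes limma drew the residual SD of AGXT, 0.122, up to 0.162. It passed in limma in 1 of the 25 fits that left out a litter or a pig, without the high RFI female of sow 1411 (-0.15, p = 0.0479), and in none of the 16 alternative settings.

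GRHPR, the reductase that turns glyoxylate into glycolate, differed by -0.04 (standard error 0.11, 95% interval -0.28 to 0.20, p = 0.714). It ran from 6.77 to 8.14 with a median of 7.20 in low RFI pigs, and from 6.94 to 7.88 with a median of 7.19 in high RFI pigs. The low RFI pig had the lower value in 5 pairs and the higher in 5. The sign turned without the low RFI male of sow 1406 (0.03), the low RFI male of sow 1410 (0.01) or the litter of sow 1410 (0.0064), whereas the difference was -0.11 without the low RFI female of sow 1406 and -0.14 without the litter of sow 1411. The highest value, 8.14, was that of the low RFI female of sow 1406.

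GOT1, the cytosolic aspartate aminotransferase, was the one member with a positive difference, at 0.10 (standard error 0.12, 95% interval -0.14 to 0.34, p = 0.391). Its range was 9.24 to 9.84 in low RFI pigs and 9.07 to 10.04 in high RFI pigs, with medians of 9.52 and 9.32. The low RFI values lay inside the range of the high RFI values, and 7 of 10 pairs were higher in the low RFI pig (sign flips within pairs, exact two-sided p = 0.469). By sign flips, 3 of the 6 member probesets had a raw p under 0.05, where 4.4% of all 25092 filled probesets did. The study named the pathway from these same samples, so the larger share among members is not independent evidence.

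**Figure D2:**
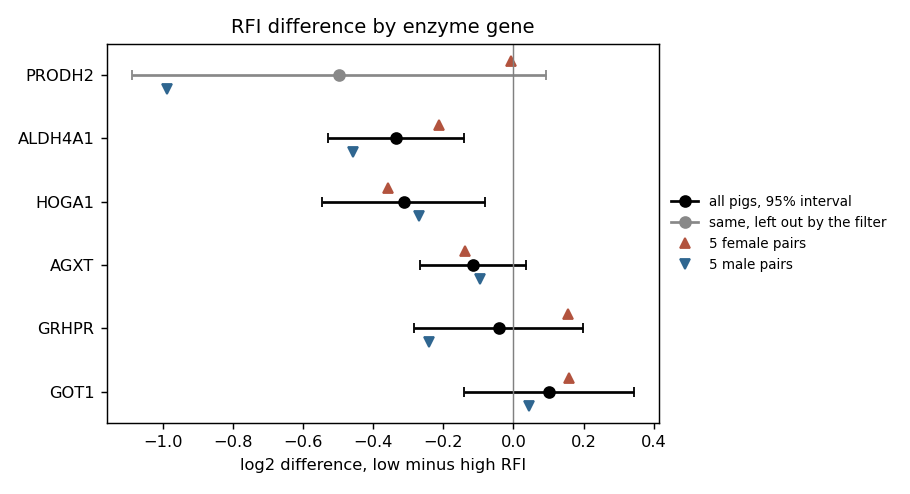
Log2 difference of low minus high RFI (x axis) for each enzyme gene (y axis): circles with bars are the limma estimate and its 95% interval over 20 pigs, grey for PRODH2, which the filter left out; triangles are the mean difference of the 5 female pairs (up, red) and of the 5 male pairs (down, blue). The intervals of ALDH4A1 and HOGA1 lie below 0, and the triangles stand farthest apart for PRODH2, at -0.01 in females and -0.99 in males.

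The RFI difference was set out by sex, since each sex gave 5 pairs. PRODH2 averaged 3.75 in low and 3.76 in high RFI females, but 3.64 in low and 4.63 in high RFI males (n = 5 each), and it was lower in 2 of 5 female and 4 of 5 male pairs. The interaction of RFI and sex did not pass the threshold for PRODH2 (-0.98, standard error 0.50, p = 0.0694 by limma without the filter, where 5.86% of all probesets passed). GRHPR was lower in 1 of 5 female pairs and in 4 of 5 male pairs, with mean differences of 0.15 and -0.24 (interaction -0.39, standard error 0.20, p = 0.0605). ALDH4A1 was lower in 4 of 5 female and 5 of 5 male pairs, by -0.21 and -0.46 on the log2 scale, and HOGA1 in 4 and 5, by -0.36 and -0.27 (interaction p = 0.187 and p = 0.713). None of the 5 filtered members passed the interaction, where 6.06% of all probesets did, and none passed the difference between the sexes themselves, where 7.43% of all probesets did. For the sexes, the difference with the smallest p was that of GRHPR, at 7.15 in males and 7.36 in females (-0.21, standard error 0.11, p = 0.0608).

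Between litters, GRHPR, ALDH4A1 and AGXT had their highest mean in the litter of sow 1406 and their lowest in that of sow 1417. GOT1 was also highest in the litter of sow 1406, but lowest in that of sow 1410. Of the 5 filtered members, ALDH4A1, HOGA1 and GRHPR differed between the 5 litters at p under 0.05 in the limma F test of the sow, where 12.9% of all probesets did, and AGXT and GOT1 did not pass. After adjustment over all probesets 0 members passed, against 3 at unadjusted p, and 0.0949% of all probesets did. Litter took 59.7% of the variance of GRHPR, 43.1% of that of HOGA1, 42.8% of that of ALDH4A1, 40.5% of that of PRODH2, 18.7% of that of GOT1 and 16.0% of that of AGXT, against 23.8% for the median probeset. The RFI group took 30.2% of the variance of ALDH4A1, 20.6% of that of HOGA1, 20.5% of that of AGXT, 9.55% of that of PRODH2, 4.16% of that of GOT1 and 0.386% of that of GRHPR, against 2.21% for the median probeset.

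**Figure D3:**
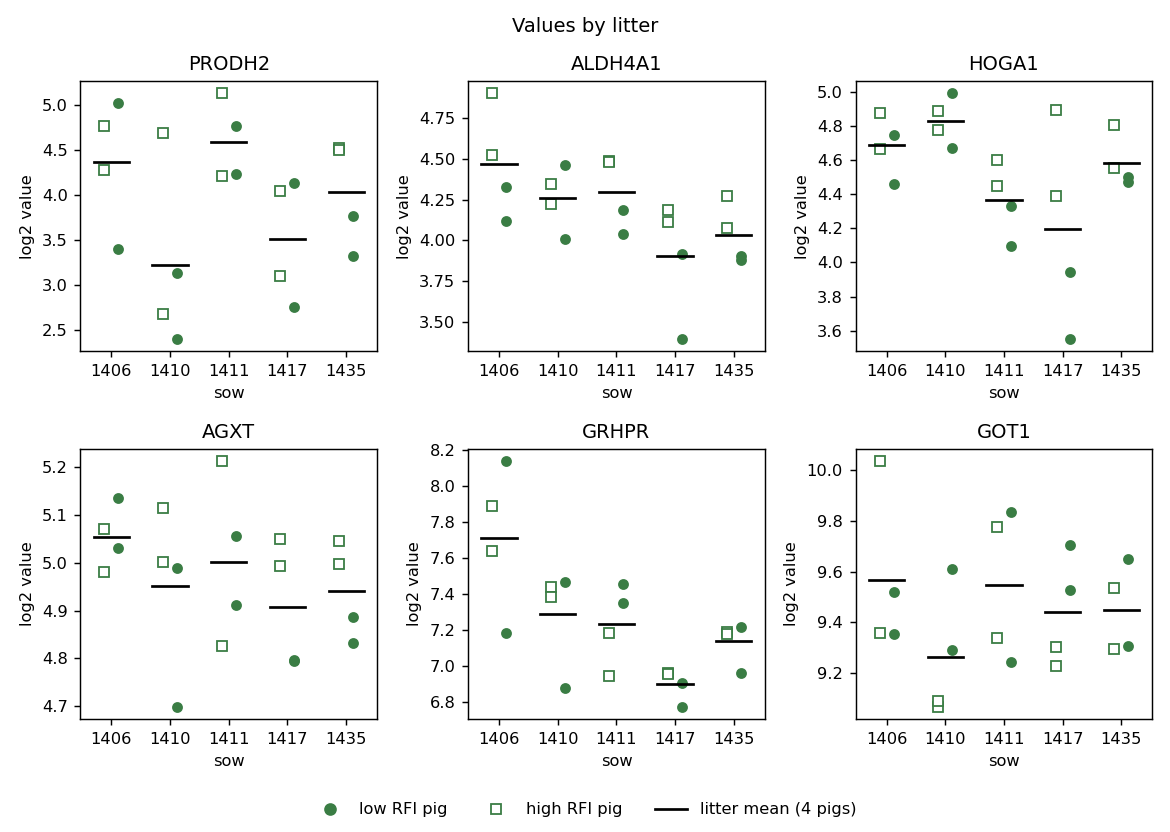
Log2 value (y axis) of each enzyme gene by sow (x axis): filled circles are low and open squares high RFI pigs, and the black line is the mean of the 4 pigs of a litter. The GRHPR mean is highest in the litter of sow 1406 (7.71) and lowest in that of sow 1417 (6.90), and the HOGA1 mean is highest in that of sow 1410 (4.83).

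GRHPR had the smallest litter p of the members (p = 0.0050, adjusted p = 0.198 by limma). Its litter means were, in order, 7.71 ± 0.41 (sow 1406), 7.29 ± 0.28 (sow 1410), 7.23 ± 0.22 (sow 1411), 7.13 ± 0.12 (sow 1435) and 6.90 ± 0.09 (sow 1417), each with its SD over 4 pigs. The 4 pigs of sow 1417 spanned 6.77 to 6.96, whereas those of sow 1406 spanned 7.18 to 8.14, and the neighbours in the middle of this order differed by less than their SD. ALDH4A1 had the same litters at its ends, with 4.47 ± 0.33 for sow 1406 and 3.90 ± 0.36 for sow 1417 (p = 0.00856, adjusted p = 0.232). In between, the litters of sows 1411, 1410 and 1435 had means of 4.30, 4.26 and 4.03. HOGA1 was also lowest in the litter of sow 1417 (4.19 ± 0.58), but highest in that of sow 1410 (4.83 ± 0.14), whose 4 pigs lay between 4.67 and 4.99 (p = 0.0142, adjusted p = 0.263). PRODH2 had its lowest litter mean, 3.22 ± 1.02, for sow 1410 and its highest, 4.59 ± 0.44, for sow 1411 (p = 0.0337 without the filter, where 12.5% of all probesets passed). AGXT and GOT1 did not pass, with ranges of litter means of 0.15 (p = 0.734) and 0.30 (p = 0.503).

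These litter calls moved with single litters. Without the litter of sow 1406 that of GRHPR was lost (p = 0.0902), without that of sow 1417 that of ALDH4A1 (p = 0.0536), and without that of sow 1410 that of HOGA1 (p = 0.0569). For PRODH2 the p was 0.0671 without the litter of sow 1410 and 0.102 without that of sow 1411, and it also rose over 0.05 with any one of 8 pigs left out: the low RFI pigs of sows 1410 and 1411, the low RFI male of sow 1417, and the high RFI female of sow 1410 and males of sows 1406 and 1411. A score of 8 fibroblast and matrix genes (the mean of their standardised values) was also highest in the litter of sow 1406 (1.23) and low in those of sows 1417 (-0.77) and 1435 (-0.79). With this score as covariate, a setting chosen after the data were seen, the litter p was 0.349 for ALDH4A1, 0.193 for GRHPR and 0.0561 for PRODH2, and 0.0426 for HOGA1. With the planned smooth muscle score as covariate, the litter p of these genes lay between 0.0162 and 0.0281 (limma F test). With the planned enterocyte score it lay between 0.0234 and 0.0411. Scores of macrophage and B cell genes were also high for sow 1406 (0.43 and 0.42) and low for sow 1417 (-0.63 and -0.72). Those of T cell, enterocyte and hepatocyte genes were lower for sow 1406 than for sow 1417. The part of these scores in the litter differences was not tested further, and sow and pen cannot be told apart.

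The fibroblast and matrix score overlapped between the RFI groups, running from -1.11 to 1.74 in low and from -1.37 to 1.59 in high RFI pigs. With it as covariate the RFI differences were -0.34 for ALDH4A1 (p = 0.00159) and -0.33 for HOGA1 (p = 0.00727). With the score of 7 enterocyte genes they were -0.33 (p = 0.00193) and -0.31 (p = 0.0140), and with that of 7 smooth muscle genes -0.33 (p = 0.00308) and -0.32 (p = 0.0146). Of the 6 tested smooth muscle genes, the actin gene ACTA2 was lower in low RFI pigs (3.15 against 3.77, difference -0.62, p = 0.0254 by limma). Of the 6 differences 4 were negative, with a median of -0.04. Of the 3 tested fibroblast and matrix genes, the collagen gene COL1A1 was higher (3.61 against 3.22, 0.39, p = 0.0166), with a median difference of 0.36 over the 3. Of the 3 tested hepatocyte genes, the thyroid hormone carrier gene TTR was lower (5.11 against 5.29, -0.18, p = 0.0469), with a median difference of -0.16. The adjusted p of ACTA2, COL1A1 and TTR was 0.9998 each, and 4.03% of all probesets passed the unadjusted threshold. None of the tested enterocyte (6), B cell (3), T cell (7), macrophage (4) or goblet cell (4) genes passed.

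Across the pigs, ALDH4A1 and HOGA1 were positively related once the litter means were taken off, by rho after adjustment and not by r. Over 15 pairs of genes, with permutation within litters (100000 resamples, n = 20 pigs), the pair had a Pearson r of 0.57 (p = 0.0464, adjusted p = 0.348) and a Spearman rho of 0.78 (p = 0.00076, adjusted p = 0.0114), and r was 0.54 without the 2 pigs farthest from the median of ALDH4A1. Both genes had their lower mean in low RFI pigs, so the groups enter this relation. Within the RFI groups the relation was taken on the deposited values, with the litters left in, so these values are not the same measure. The permutations there ran over all 10 pigs of a group and not within litters, so litter mates were treated as independent. Within the 10 low RFI pigs r was 0.59 (rho 0.42, permutation p = 0.0766 and 0.235), and 0.26 without the 2 pigs at the ends. Within the 10 high RFI pigs r was 0.14 (rho 0.02, permutation p = 0.705 and 0.973). HOGA1 and GOT1, which lie 1.62 Mb apart on chromosome 14, had a negative relation that did not pass after adjustment. Their r was -0.49 (permutation p = 0.0273, adjusted p = 0.348) and their rho -0.45 (permutation p = 0.0886, adjusted p = 0.664). Without the 2 pigs farthest from the median of HOGA1, r was -0.39. On the deposited values, litters left in, r of this pair was -0.49 within low and -0.47 within high RFI pigs (permutation p = 0.145 and 0.173), and rho -0.45 and -0.56 (permutation p = 0.189 and 0.0973). No other pair of genes had a p under 0.05 for r.

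**Figure D4:**
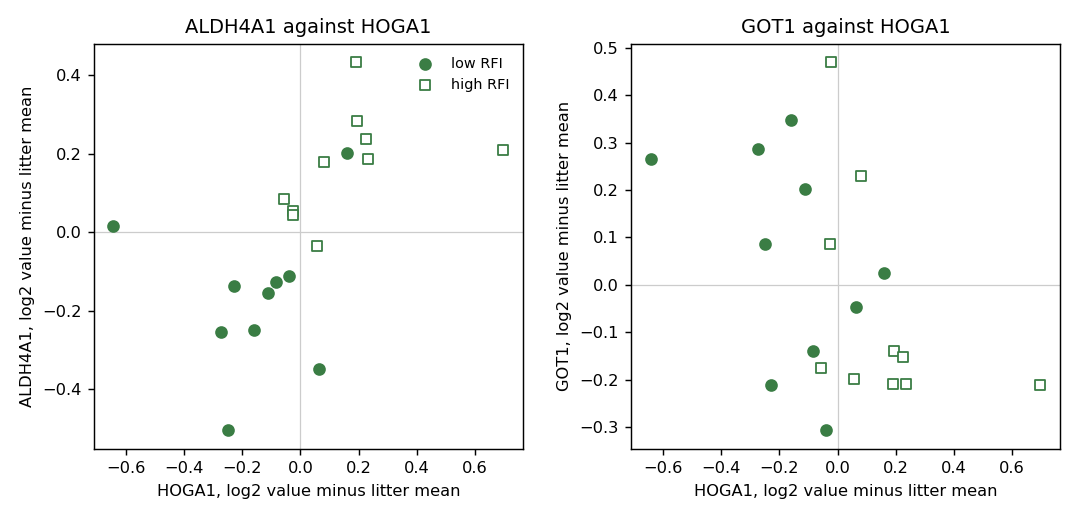
Deviation of each pig from its litter mean on the log2 scale, for HOGA1 (x axis) against ALDH4A1 (left) and GOT1 (right); filled circles are low and open squares high RFI pigs. With HOGA1, r was 0.57 for ALDH4A1 and -0.49 for GOT1, and neither r passed after adjustment.

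ALDH4A1 and GRHPR had an r of 0.58 and a rho of 0.58 over the deposited values (permutation p = 0.0077 and 0.00791, adjusted p = 0.0671 and 0.119, n = 20). These permutations ran over all pigs and not within litters, so litter mates were treated as independent. After the litter means were taken off, r was 0.23 and rho 0.08 (permutation within litters, p = 0.452 and 0.757). Within the 10 low RFI pigs their r was 0.72 (rho 0.77, permutation p = 0.0252 and 0.0128), the smallest p of the 30 relations within RFI groups, with an adjusted p of 0.755 and 0.383.

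The genes whose deposited values followed each member most closely over the 20 arrays were listed as a description, since they share arrays and litters. For ALDH4A1 they were NRP2, a receptor of semaphorins and of vascular growth factors (r = 0.81), LYVE1, the hyaluronan receptor of lymphatic vessels (r = 0.77), and ACOX3, a peroxisomal oxidase of branched fatty acids (r = 0.76). NRP2 and LYVE1 had litter p values of 0.00247 and 0.00135 but RFI p values of 0.371 and 0.106. For GRHPR they were RPS27A, a ribosomal protein fused to ubiquitin (r = 0.87), KARS, the lysyl-tRNA synthetase (r = 0.85), and MED27, a subunit of Mediator (r = 0.83). For HOGA1 they were HOXA13, a homeobox factor of the hindgut, IRF9, a factor of interferon signalling, and the zinc finger gene ZNF792, each at r = 0.74. ZNF792 was lower in low RFI pigs (-0.25, p = 0.0139 by limma), the only gene listed here under 0.05 for RFI. AGXT was followed by ZNF446, DOK4 and ESYT3 (r = 0.75 to 0.76), GOT1 by PIP4K2C, SLC20A2, a phosphate transporter, and KLHDC3 (r = 0.73 to 0.75), and PRODH2 by TNFRSF12A, CCDC142 and WAS (r = 0.69 to 0.72).

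Of 33 tested genes on either side of the route, each taken by its tested probeset of highest mean, 1 passed the threshold for RFI (3.03%). The share over all probesets, which is not limited to 1 probeset a gene, was 4.03%. Of 9 tested genes of collagen and its hydroxylation, COL1A1, the main chain of type I collagen, was higher in low RFI pigs (3.61 ± 0.51 against 3.22 ± 0.54, SD, n = 10 each; difference 0.39, standard error 0.15, p = 0.0166, adjusted p = 0.9998 by limma), and 8 did not pass. Among these, the prolyl hydroxylase subunit P4HA1 had a difference of -0.19 (p = 0.305). None of 6 genes of the release and uptake of proline and hydroxyproline passed, among them PEPD, the dipeptidase that frees both from collagen peptides (0.06, p = 0.594), and SLC6A19, a transporter of neutral amino acids (-0.01, p = 0.906). None of 4 genes of proline and glutamate synthesis passed, where GLUD1, the glutamate dehydrogenase, had the largest difference in size (-0.30, p = 0.102). None of 10 neighbours of glyoxylate and oxalate passed, with 4 negative differences and a median of 0.00. Among them were HAO1, the oxidase that makes glyoxylate from glycolate (0.00, standard error 0.26, p = 0.987), and DAO, which oxidises D-amino acids and glycine (-0.15, p = 0.289). DLD had the largest difference in size of the 10 (0.24, p = 0.0892). None of 4 genes of the malate and aspartate shuttle passed, and each had a positive difference, with MDH2, the mitochondrial malate dehydrogenase, at 0.13 (p = 0.191).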

How the data were processed

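According to the methods of the study, the authors assigned the probes of the snowball array to probesets on Sscrofa11.1 and normalised intensities with the affy package. The deposited values are robust multichip averages in log2 units. The submitters' processing notes name GCOS 1.1.1. Of 47845 rows, 25092 were filled and 22753 empty. Gene names came from the platform annotation, updated through RefSeq synonyms.

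Probesets were filtered on mean (at least 1.75, the 5% quantile) and on SD (at most 0.825 for low and 0.808 for high RFI, the 95% quantiles), and 22136 remained. Each probeset was fitted with limma 3.58.1 (R 4.3.3) on the RFI group and the sow. The residual degrees of freedom were 14 and the prior ones 4.42. The labels used here give no slaughter batch, so this term of the methods was not fitted. The litter (F test), sex and interaction terms were fitted likewise, and the Benjamini-Hochberg adjustment covered all probesets tested. Sign flips within the 10 litter-by-sex pairs (1024) gave exact tests for single probesets. Correlations and plots used Python 3.11.15, numpy 2.4.6 and matplotlib 3.10.9.

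The members, the lists and the rule for named genes (each filled probeset of the 10 genes, list members at p under 0.05 and the 3 genes most like each member) were chosen with earlier results of these data known. In the counts of listed genes, each gene stood by its tested probeset of highest mean, and its other probesets were not counted. The other neighbour genes named were picked for their place in the route or for the size of their difference. The pairs come from the labels' sow and sex. Deviations from the RFI means correlated within pairs with a median of 0.0836, over 0.1 in 4 of 10. The scripts were tested on simulated data. The number of arrays limits the precision.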

Additional observations from a re-analysis of the deposited data

Results flagged for a closer look

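Of 42 groups of pigs checked (each member by RFI group and by litter), 3 held a pig far from the others, and chance marks about 1 in 20. They all concern GRHPR. The low RFI female of sow 1406 stood highest among low RFI pigs, at 8.14, with the next at 7.47. In the litter of sow 1410 the low RFI male was lowest, at 6.88 with the next at 7.38, and in that of sow 1435 the low RFI male was lowest, at 6.96 with the next at 7.17.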

How the results depend on the processing

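In the 16 alternative fits of the RFI difference the count of members called stayed at 2 of those tested, and the count over all probesets ran from 710 to 1017, against 893. Leaving out each litter or pig gave 1 to 3 members and 771 to 1099 probesets. The 1 came without the litter of sow 1417, where the call of HOGA1 was lost (-0.17). Taking the pair as replicate block, p was 0.00415 for ALDH4A1 and 0.0130 for HOGA1, and limma called 2 members and 953 of the 22136 probesets tested. The sign flips called 3 members and 1104 of the 25092 filled probesets. Of the calls over all probesets, 64.3% were lower in low RFI, 55.7% after renewed quantile normalization and 53.8% after centring each array on its median. Between litters, leave-outs gave 2 to 3 members and 1912 to 3193 probesets, against 3 and 2848. The fibroblast and matrix score as covariate, added after the data were seen, left 1 member and 1390 probesets. The planned smooth muscle score left 3 members and 2025 probesets, and the planned enterocyte score 3 and 2234. The sex and interaction counts stayed within 1.5 times their values. No pair of genes passed an adjusted p for r, with or without the litter means. One probeset a gene and the number of arrays limit what can be seen.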
